A study of Arabidopsis thaliana with 12 samples.

Results

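Seeds of the abi3-6 mutant of Arabidopsis thaliana at 16 days after flowering (DAF) were set against wild-type (Col-0) seeds at 12 DAF. The comparison asks whether mutant seeds of the later age match wild-type seeds of the earlier one, or hold levels found at neither wild-type age. It contrasted 6 of the 12 arrays of the series, namely 3 of abi3-6 at 16 DAF and 3 of wild type at 12 DAF. Of 22746 non-control probe sets, 14873 were bright enough to test. The other 6 arrays were of wild type at 16 DAF and abi3-6 at 12 DAF. They gave the levels that place each gene on the wild-type and the mutant course. They also entered the choice of probe sets bright enough to test and the estimate of spread used in the tests. All 4 groups were intact seeds dissected out of siliques of plants grown at 22°C with 16 h of light and 8 h of dark a day. Mutant seeds came from plants homozygous for abi3-6, wild-type seeds from Col-0 plants, and each array held RNA from a separate batch of plants. The titles of the wild-type 12 DAF arrays carry a further number that those of the other groups lack, and the titles do not state its meaning.

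ABI3 is a B3-domain transcription factor that acts with LEC1, LEC2 and FUS3 in the maturation phase of the seed. In that phase the embryo fills with storage proteins and oil, loses its chlorophyll, gains tolerance to drying and becomes dormant. Severe abi3 alleles are known for green, desiccation-intolerant seeds that are insensitive to abscisic acid. The annotation used here gives ABI3 no probe set of its own, and the level of the mutated gene was not analysed. Whole seeds hold embryo, endosperm and seed coat, and in such bulk samples fewer cells of a type and less RNA per cell cannot be told apart.

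Levels are given as deposited and read as log2 values, so that a difference of 1 is a change of 2 times. A probe set was called where limma gave a Benjamini-Hochberg adjusted p under 0.05 over all probe sets tested. Values under 3.16, the dim limit, were treated as bounds: where all 3 arrays of a group lay below it, the fold is given as "at least", counted from that limit. Array medians were 4.43 to 4.46 in 16 DAF abi3-6 seeds, 4.05 to 4.10 in 16 DAF wild-type seeds, 4.41 to 4.45 in 12 DAF abi3-6 seeds and 4.27 to 4.34 in 12 DAF wild-type seeds. The actin control showed a difference of 3′ minus 5′ probe sets of 0.37 ± 0.03 in 16 DAF abi3-6 seeds, -0.21 ± 0.02 in 16 DAF wild-type seeds, 0.37 ± 0.09 in 12 DAF abi3-6 seeds and -0.37 ± 0.17 in 12 DAF wild-type seeds (log2, SD, n = 3 each). The actin difference thus moved with genotype. In the same order of groups GAPDH gave 0.18 ± 0.12, -0.07 ± 0.41, 0.07 ± 0.16 and 0.07 ± 0.24. Ubiquitin gave 0.18 ± 0.09, 0.04 ± 0.02, -0.17 ± 0.10 and -0.09 ± 0.19. GAPDH and ubiquitin did not separate the genotypes in that way. Between the groups compared, the mean was higher in 16 DAF abi3-6 than in 12 DAF wild-type seeds for all 3 controls, with overlapping SD for GAPDH. The part of these control differences in the results was not tested. The groups of this comparison differ in genotype and age at once, and the array file names also follow age, so that the share of each in a difference cannot be told apart from these 6 arrays.

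Most of the transcriptome differed between the older mutant and the younger wild-type seed. Of 14873 probe sets, 9831 were called (66.1%), with 5344 higher (35.9%) and 4487 lower (30.2%) in 16 DAF abi3-6 seeds. A change of 2-fold or more was reached by 3102 probe sets on the higher side (20.9%) and 2542 on the lower side (17.1%). Changes of 8-fold or more were reached by 537 called probe sets that were higher and 602 that were lower, and 103 and 162 passed 32-fold. Wild type at 16 DAF, set against the same wild-type arrays, gave 9281 calls (62.4%, with 32% higher and 30.4% lower). The root mean square difference across probe sets was 1.65 for abi3-6 at 16 DAF and 1.34 for wild type at 16 DAF, both against wild type at 12 DAF. These comparisons share the wild-type 12 DAF arrays, so their values stand side by side without a test of the difference.

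Array-to-array correlations across probe sets describe likeness only, since probe sets are not independent replicates. Arrays of abi3-6 at 16 DAF correlated with those of wild type at 12 DAF at a mean r of 0.745 (0.709 to 0.764) and with those of wild type at 16 DAF at 0.747 (0.717 to 0.765). Both wild-type ages were therefore about equally unlike the older mutant, which correlated at 0.891 with abi3-6 at 12 DAF. Wild type at 16 and at 12 DAF correlated at 0.836. Gene by gene, the mean of abi3-6 at 16 DAF lay nearer to wild type at 12 DAF for 7807 probe sets (52.5%) and nearer to wild type at 16 DAF for 7066 (47.5%).

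**Figure D1:**
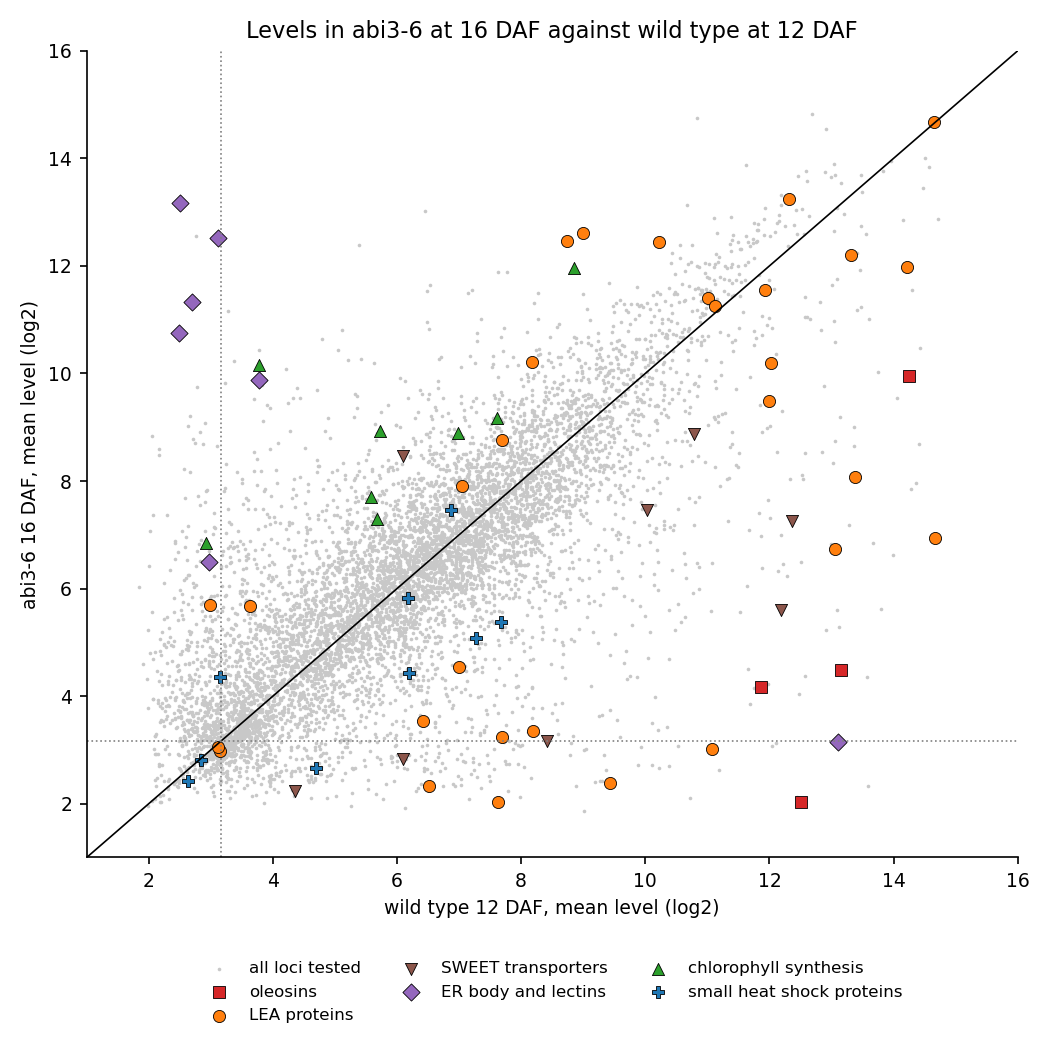
Mean level of each locus in 16 DAF abi3-6 seeds (vertical axis, log2) against wild type at 12 DAF (horizontal axis, log2), n = 3 arrays each, with 6 gene lists marked. The solid line marks equal levels and the dotted lines the dim limit of 3.16. Oleosins lie far below the line, chlorophyll synthesis genes above it, and all ER body and lectin genes but 1 far above it.

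For 7008 probe sets (47.1%), all 3 arrays of abi3-6 at 16 DAF lay outside the range of all 6 wild-type arrays of both ages. Of these, 3716 lay above every wild-type array (25%) and 3292 below every one (22.1%). That split depended on scaling. With each array centred on its median, 2819 lay above and 4505 below, while quantile normalization gave 3469 above and 3638 below. Centring moved the median difference over all probe sets to -0.10, against 0.04 as deposited, and among called probe sets it gave 4763 higher and 5272 lower. Changes near that size are therefore relative to the scaling used.

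The 3 arrays of the older mutant did not lie equally far from wild type. Replicate 3 correlated with wild type at 12 DAF at a mean r of 0.712, against 0.761 for replicates 1 and 2. It was the lowest of the 3 for 1569 of the 2542 probe sets called lower by 2-fold or more (61.7%), and the highest for 1691 of the 3102 called higher by as much (54.5%). Without it, 9334 probe sets were called, 5500 of them at 2-fold or more. The count outside the wild-type range was 7544, against 7606 without replicate 1 and 7576 without replicate 2. Leaving out any array can only keep or raise that count, so it does not show how replicate 3 differed. The labels give no reason why it should differ.

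The mutant nevertheless moved in the wild-type direction between the ages for the genes with the largest wild-type changes. The sizes of change share no array, since the wild-type change used the 6 wild-type arrays and the mutant change the 6 mutant arrays. The calls do share 1 estimate of spread per probe set, taken over all 12 arrays. Probe sets called in wild type therefore tend to be easier to call in the mutant. The shares over all probe sets given beside the counts are thus no independent baseline. Of 1178 probe sets that were called and at least 4-fold lower in wild type at 16 than at 12 DAF, 968 were also lower in abi3-6 at 16 than at 12 DAF (82.2%, against 23.5% of all probe sets tested), and 37 were higher. Of 593 that were called and at least 4-fold higher in 16 DAF wild-type seeds, 392 were also higher in abi3-6 (66.1%, against 27.1% of all), and 20 were lower. The mutant's median change was -1.59 over the first set and 0.92 over the second, against 0.07 over all probe sets. Both ages of a genotype differ in array file names in the same way, so that an effect of the array run and one of age cannot be told apart here.

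The genes with a large wild-type change and the smallest difference between the older mutant and the younger wild type were named as a description, since that difference chose them. For PRXR1, a class III peroxidase, abi3-6 at 16 DAF gave 14.10, 14.10 and 13.67, wild type at 16 DAF 11.04, 11.16 and 10.48, and wild type at 12 DAF 14.13, 13.72 and 14.04. AT1G78040 behaved alike, with means of 13.08, 11.01 and 13.08 in the same 3 groups. AT1G71970 had means of 6.20 in 16 DAF abi3-6 seeds, 4.16 in 16 DAF wild-type seeds and 6.20 in 12 DAF wild-type seeds. In these 3, wild type was lower at the later age. The younger mutant stood higher than the older one, at 14.86 for PRXR1, 13.69 for AT1G78040 and 6.61 for AT1G71970. The reverse course was seen for AT1G76590, with 8.07 in 16 DAF abi3-6 seeds, 10.37 in 16 DAF wild-type seeds and 8.08 in 12 DAF wild-type seeds. AT5G38780 was below the dim limit in 16 DAF abi3-6 seeds and in 12 DAF wild-type seeds, and averaged 6.84 ± 0.46 in 16 DAF wild-type seeds. AT5G19920 averaged 5.28 ± 0.10 in 16 DAF wild-type seeds and reached the limit on no array of abi3-6 at 16 DAF and 1 of 3 of wild type at 12 DAF.

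The list members spread over both sides of 0, and lists differed in where they stood. Many listed loci had no probe set of their own. Tested were 10 of 55 nuclear photosynthesis, 4 of 22 Calvin cycle and 8 of 26 chlorophyll synthesis loci. The same held for 4 of 8 oleosin, 7 of 19 ER body and lectin, 3 of 19 oil breakdown and 3 of 28 flavonoid pathway loci. Statements on a list cover its tested members only.

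**Figure D2:**
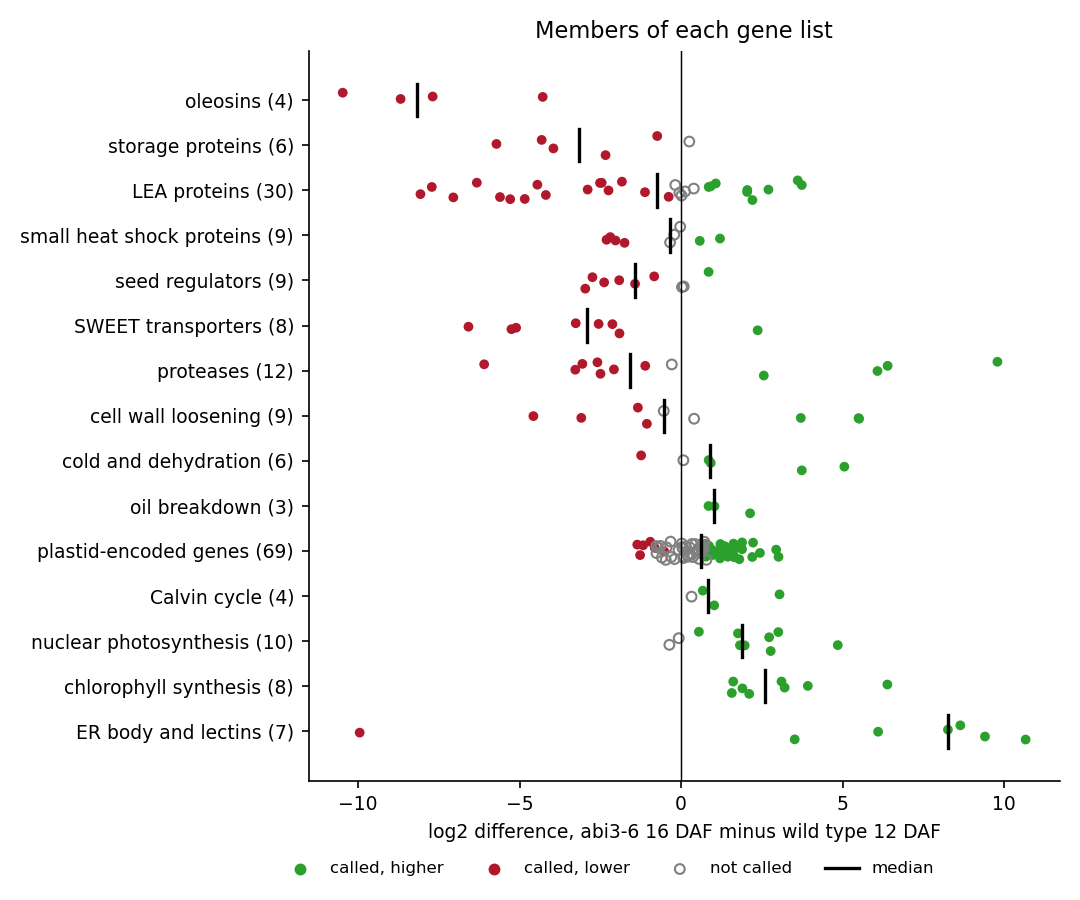
Log2 difference of abi3-6 at 16 DAF minus wild type at 12 DAF for every tested member of 15 gene lists (number of members in brackets). Filled points were called, green for higher and red for lower in abi3-6, open points were not called, and bars are medians. Medians ran from -8.18 for oleosins to 8.26 for ER body and lectin genes.

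Oil body genes were far lower in the older mutant than at either wild-type age. Oleosins coat the oil bodies of the seed, and all 4 that were tested were called lower (4 of 4, against 30.2% of all probe sets), with a median difference of -8.18. All 4 also lay below all 6 wild-type arrays (22.1% of all probe sets did). The oleosin AT2G25890 gave 2.04, 2.07 and 2.02 on the abi3-6 16 DAF arrays, against 13.08, 13.13 and 13.08 in 16 DAF wild-type seeds and 12.67, 12.43 and 12.43 in 12 DAF wild-type seeds. It was below the dim limit on every mutant array and at least 652-fold lower than in 12 DAF wild-type seeds (adjusted p = 1.80e-15). At 12 DAF the mutant was already at 2.23.

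OLEO3 took another course. It gave 5.34, 4.60 and 3.50 in 16 DAF abi3-6 seeds, 10.04, 10.27 and 10.25 in 16 DAF wild-type seeds, 10.93, 10.74 and 10.93 in 12 DAF abi3-6 seeds and 13.18, 13.10 and 13.20 in 12 DAF wild-type seeds. Both genotypes were lower at 16 than at 12 DAF, and the difference from wild type at 12 DAF was -8.68 ± 0.32 (SE; adjusted p = 3.10e-11). AT3G18570 averaged 4.17 ± 1.21 in 16 DAF abi3-6 seeds (2 of 3 arrays above the dim limit), 11.66 ± 0.13 in 16 DAF wild-type seeds and 11.86 ± 0.20 in 12 DAF wild-type seeds (SD, n = 3 each). AT3G01570 averaged 9.96 ± 0.78, 13.82 ± 0.08 and 14.24 ± 0.14 in those groups. In both, replicate 3 of the older mutant was the lowest, and abi3-6 at 12 DAF stood higher, at 9.56 and 13.27.

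Storage protein genes fell too, by smaller amounts. Of 7 loci with a probe set of their own 6 were tested, 5 were called lower (30.2% of all probe sets were) and 0 higher, with a median of -3.14. The cupin-family storage protein gene AT1G03890 gave 9.64, 9.27 and 7.17 in 16 DAF abi3-6 seeds, against 14.45, 14.43 and 14.34 in 12 DAF wild-type seeds, a difference of -5.71 ± 0.44 (adjusted p = 4.94e-08). AT4G36700 averaged 8.53 ± 1.22 in 16 DAF abi3-6 seeds, 11.16 ± 0.14 in 16 DAF wild-type seeds and 12.85 ± 0.23 in 12 DAF wild-type seeds. In abi3-6 at 12 DAF it was at 12.72, close to wild type of that age, and the low values were those of the older mutant. AT2G28490 was lower by a difference of -3.95, and AT2G18540 by one of -2.34. PAP85, a vicilin-type storage protein gene, held 13.84 ± 0.32 in 16 DAF abi3-6 seeds, against 14.58 ± 0.08 in 12 DAF wild-type seeds, and its difference of -0.74 was the smallest of those called. AT1G07750 was not called, with a 95% interval of -0.13 to 0.63.

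Late embryogenesis abundant (LEA) genes, whose hydrophilic proteins accumulate as seeds dry, went both ways. Of 30 tested members 16 were called lower (30.2% of all probe sets were), 9 higher (35.9%) and 5 were not called, with a median of -0.75. In wild type 17 of the 30 were called higher at 16 than at 12 DAF (32% of all probe sets were). In the older mutant 17 members lay below every wild-type array (22.1% of all probe sets did) and 6 above every one (25%). The count above was near the share over all.

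The LEA genes with the largest falls against 12 DAF wild-type seeds lay below the range of both wild-type ages. AT3G53040 gave 3.14, 2.63 and 3.26 in 16 DAF abi3-6 seeds, 13.40, 13.36 and 13.28 in 16 DAF wild-type seeds and 10.72, 11.48 and 11.04 in 12 DAF wild-type seeds. Of the older mutant arrays, 1 of 3 reached the dim limit. The difference from wild type at 12 DAF was -8.07 ± 0.21 (adjusted p = 1.14e-12). AT1G72100 was below the limit on all 3 arrays of the older mutant and at least 77.2-fold lower than in 12 DAF wild-type seeds. AT3G15670 averaged 6.95 ± 0.54 in 16 DAF abi3-6 seeds, 15.21 ± 0.02 in 16 DAF wild-type seeds and 14.66 ± 0.03 in 12 DAF wild-type seeds. These 3 genes were low in the mutant at 12 DAF as well, with means of 3.30, 2.33 and 8.81.

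M17, a LEA gene expressed late in maturation, gave 2.82, 3.25 and 4.52 in 16 DAF abi3-6 seeds, 13.07, 12.49 and 13.07 in 16 DAF wild-type seeds and 6.59, 7.22 and 5.44 in 12 DAF wild-type seeds. The wild-type rise between the ages was 6.45, and the older mutant was -2.89 ± 0.43 from the earlier wild-type level (adjusted p = 3.75e-05). AT3G22490, with a wild-type rise of 5.85, was at least 10.2-fold lower in 16 DAF abi3-6 seeds than in 12 DAF wild-type seeds. For both genes the older mutant stood below the younger wild type.

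M10 behaved otherwise. It gave 12.07, 12.62 and 12.61 in 16 DAF abi3-6 seeds, 14.05, 14.20 and 14.23 in 16 DAF wild-type seeds, 8.45, 9.17 and 9.25 in 12 DAF abi3-6 seeds and 10.56, 10.53 and 9.58 in 12 DAF wild-type seeds. The mutant rose between the ages as wild type did, and at 16 DAF it lay between the wild-type levels, 2.21 ± 0.27 above wild type at 12 DAF (adjusted p = 6.12e-06). LEA4-5 averaged 11.25 ± 0.34 in 16 DAF abi3-6 seeds, 13.35 ± 0.14 in 16 DAF wild-type seeds and 11.13 ± 0.37 in 12 DAF wild-type seeds. Its difference from wild type at 12 DAF was not called, with a 95% interval of -0.32 to 0.57. AT2G23110 was not called either (95% interval -0.02 to 0.80), at 11.40 ± 0.28 in 16 DAF abi3-6 seeds against 11.01 ± 0.35 in 12 DAF wild-type seeds, while wild type at 16 DAF stood at 13.26. In both genes the older mutant lay below wild type of its own age.

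Of the 9 LEA genes called higher, 6 stood above all 6 wild-type arrays. DI21, a drought-induced gene, gave 12.28, 12.19 and 12.94 in 16 DAF abi3-6 seeds, against 8.92, 8.87 and 8.42 in 12 DAF wild-type seeds (difference 3.74 ± 0.22, adjusted p = 3.06e-09). The dehydrin gene AT1G54410 gave 12.38, 12.44 and 12.99 in 16 DAF abi3-6 seeds, 7.17, 7.40 and 7.18 in 16 DAF wild-type seeds and 8.80, 9.23 and 8.95 in 12 DAF wild-type seeds. Wild type did not reach the mutant level of either gene at any age measured. LTI30, a dehydrin, was 0.92 above wild type at 12 DAF and below its level at 16 DAF. The dehydrin COR47 differed by 0.85 with replicate 3 of the older mutant and by 0.50 without it, where the call was lost (limma adjusted p = 0.151). It was also lost without replicate 1 or replicate 3 of wild type at 12 DAF.

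**Figure D3:**
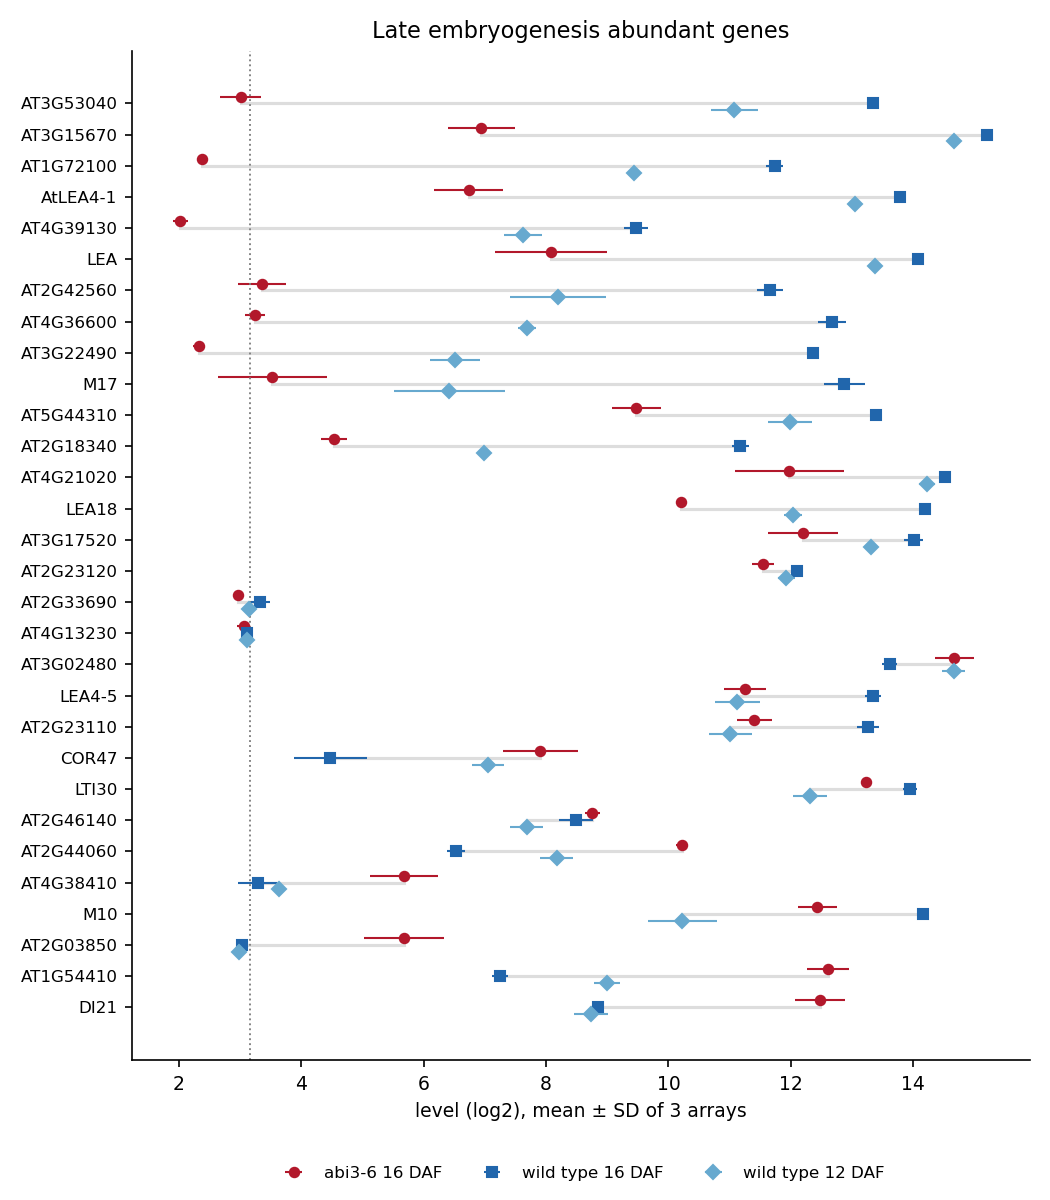
Levels (log2, mean ± SD of 3 arrays) of the 30 tested LEA genes in 16 DAF abi3-6 seeds, wild type at 16 DAF and wild type at 12 DAF, ordered by the difference of abi3-6 at 16 DAF minus wild type at 12 DAF. The dotted line is the dim limit. The upper 16 genes lie left of both wild-type ages, and DI21 and AT1G54410 at the foot lie right of both.

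Small heat shock protein genes, which rise in late maturation without heat, had the highest wild-type median of the lists, 3.80 between the ages. In wild type 8 of 9 were called higher (32% of all probe sets were). Against wild type at 12 DAF the older mutant showed no such rise as a group. Of 9 members, 4 were called lower than in 12 DAF wild-type seeds (30.2% of all probe sets were), 2 higher (35.9% of all) and 3 were not called, with a median of -0.34. These counts are not far from the shares over all probe sets. AT1G53540 gave 2.64, 2.68 and 2.67 in 16 DAF abi3-6 seeds, 10.16, 10.22 and 9.96 in 16 DAF wild-type seeds and 5.39, 4.90 and 3.80 in 12 DAF wild-type seeds. It was at least 2.9-fold lower in the older mutant than in the younger wild type (adjusted p = 2.10e-05). AT1G54050 averaged 5.37 ± 0.08 in 16 DAF abi3-6 seeds, 11.48 ± 0.11 in 16 DAF wild-type seeds and 7.68 ± 0.47 in 12 DAF wild-type seeds, and AT2G19310 differed by -2.19 from wild type at 12 DAF. These members were below even the younger wild-type level.

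ATHSP22.0 and AT5G51440 were below the dim limit on all arrays of abi3-6 at 16 DAF and of wild type at 12 DAF, while wild type at 16 DAF gave 6.50, 6.80 and 6.39 for the first and 6.21, 6.07 and 6.39 for the second. AT5G37670 averaged 5.83 ± 0.48 in 16 DAF abi3-6 seeds, 9.97 ± 0.13 in 16 DAF wild-type seeds and 6.17 ± 0.28 in 12 DAF wild-type seeds, and was not called (95% interval of the difference -0.83 to 0.15). Of the members called higher, AT2G29500 differed by 0.58 from wild type at 12 DAF, and stood 3.55 higher in 16 DAF wild-type seeds. That call was lost when any of 4 arrays was left out, and the difference was 0.32 without replicate 3 of wild type at 12 DAF. AT4G21870 gave 4.19, 3.71 and 5.17 in the older mutant, close to the limit in both wild-type groups, and its difference of 1.20 became 0.80 without replicate 3.

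Among 9 regulators of seed development, 6 were called lower (30.2% of all probe sets were) and 1 higher (35.9%), with a median of -1.42. EEL, a bZIP factor that acts on LEA promoters, gave 9.13, 9.41 and 8.20 in 16 DAF abi3-6 seeds, 10.51, 10.52 and 10.49 in 16 DAF wild-type seeds and 11.82, 11.89 and 11.92 in 12 DAF wild-type seeds (difference -2.96 ± 0.23, adjusted p = 5.72e-08). BBM, an AP2-domain factor that can induce embryos, averaged 3.23 ± 0.20 in 16 DAF abi3-6 seeds, 4.27 ± 0.41 in 16 DAF wild-type seeds and 5.97 ± 0.10 in 12 DAF wild-type seeds. The MADS-domain gene AGL18 averaged 5.74 ± 0.05, 6.99 ± 0.07 and 8.13 ± 0.04 in those groups. For these 3 wild type was lower at 16 than at 12 DAF, and the older mutant was lower still. AGL67, another MADS-domain gene, did not follow age in the same way, with 9.19 in 16 DAF abi3-6 seeds, 11.33 in 16 DAF wild-type seeds and 11.10 in 12 DAF wild-type seeds.

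The bHLH gene SPT and the bZIP gene bZIP44 stood higher in the older mutant than in wild type of its age. SPT gave 6.20, 6.61 and 6.59 in 16 DAF abi3-6 seeds, 3.73, 3.69 and 3.70 in 16 DAF wild-type seeds and 7.87, 7.63 and 8.19 in 12 DAF wild-type seeds. bZIP44 averaged 9.84 ± 0.08 in 16 DAF abi3-6 seeds, 6.83 ± 0.33 in 16 DAF wild-type seeds and 9.81 ± 0.23 in 12 DAF wild-type seeds, and its difference from wild type at 12 DAF was not called (95% interval -0.35 to 0.41). GID1A, a gibberellin receptor, was 0.85 ± 0.17 higher in the older mutant than in 12 DAF wild-type seeds, with wild type at 16 DAF 2.51 higher.

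Several genes were low at 16 DAF in both genotypes. All 6 genes with the largest wild-type decline were low in the older mutant. FACT, a fatty alcohol caffeoyltransferase of suberin-associated waxes, gave 2.05, 2.21 and 2.03 in 16 DAF abi3-6 seeds, 3.11, 3.14 and 3.18 in 16 DAF wild-type seeds, 10.45, 10.14 and 10.22 in 12 DAF abi3-6 seeds and 10.53, 10.91 and 10.74 in 12 DAF wild-type seeds. It was at least 189-fold lower than in 12 DAF wild-type seeds, from a mutant level at 12 DAF close to that of wild type. The peroxidase-family gene AT4G25980 was at least 149-fold lower, AT2G18360 at least 65.2-fold and AT3G04200 at least 52.7-fold. AT2G18370, of the lipid transfer protein family, averaged 2.63 ± 0.19 in 16 DAF abi3-6 seeds, 4.98 ± 0.44 in 16 DAF wild-type seeds and 11.19 ± 0.15 in 12 DAF wild-type seeds. AT1G04380, the remaining one, is a dioxygenase-family gene and differed by -4.78 ± 0.28, with 2 of 3 arrays of the older mutant reaching the dim limit and none of wild type at 16 DAF.

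Sugar transporters of the SWEET family, which export sucrose or hexoses towards the filling embryo, were mostly lower at 16 DAF too, with 5 of 8 called lower in wild type (30.4% of all probe sets were). Of 16 with a probe set of their own 8 were tested, and 7 of the 8 were called lower than in 12 DAF wild-type seeds (30.2% of all) and 1 higher, with a median of -2.91. The sucrose exporter gene SWEET11 gave 5.94, 5.50 and 5.37 in 16 DAF abi3-6 seeds, 7.62, 7.80 and 7.53 in 16 DAF wild-type seeds, 10.87, 10.66 and 10.79 in 12 DAF abi3-6 seeds and 12.10, 12.27 and 12.17 in 12 DAF wild-type seeds (difference -6.58 ± 0.16, adjusted p = 5.46e-13). SAG29, also known as SWEET15, averaged 7.26 ± 0.74 in 16 DAF abi3-6 seeds, 8.92 ± 0.14 in 16 DAF wild-type seeds and 12.37 ± 0.06 in 12 DAF wild-type seeds. AtVEX1, also known as SWEET5, averaged 3.16 ± 0.12 (1 of 3 arrays above the dim limit), 5.01 ± 0.08 and 8.41 ± 0.17 in those groups. For these 3 the older mutant was below the older wild type.

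SWEET6 broke from that course, since wild type rose between the ages by 3.83. It gave 3.07, 2.71 and 2.74 in 16 DAF abi3-6 seeds, 10.13, 9.71 and 9.94 in 16 DAF wild-type seeds and 6.72, 5.99 and 5.59 in 12 DAF wild-type seeds, at least 7.66-fold lower in the older mutant than in 12 DAF wild-type seeds. SWEET1 rose in the older mutant to 8.47 ± 0.19, against 6.10 ± 0.34 in 12 DAF wild-type seeds, close to the 8.41 ± 0.25 of wild type at 16 DAF. The genes SWEET7 and SWEET10 were called lower, with differences of -2.55 and -1.91, and SWEET2 was at least 2.28-fold lower.

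**Figure D4:**
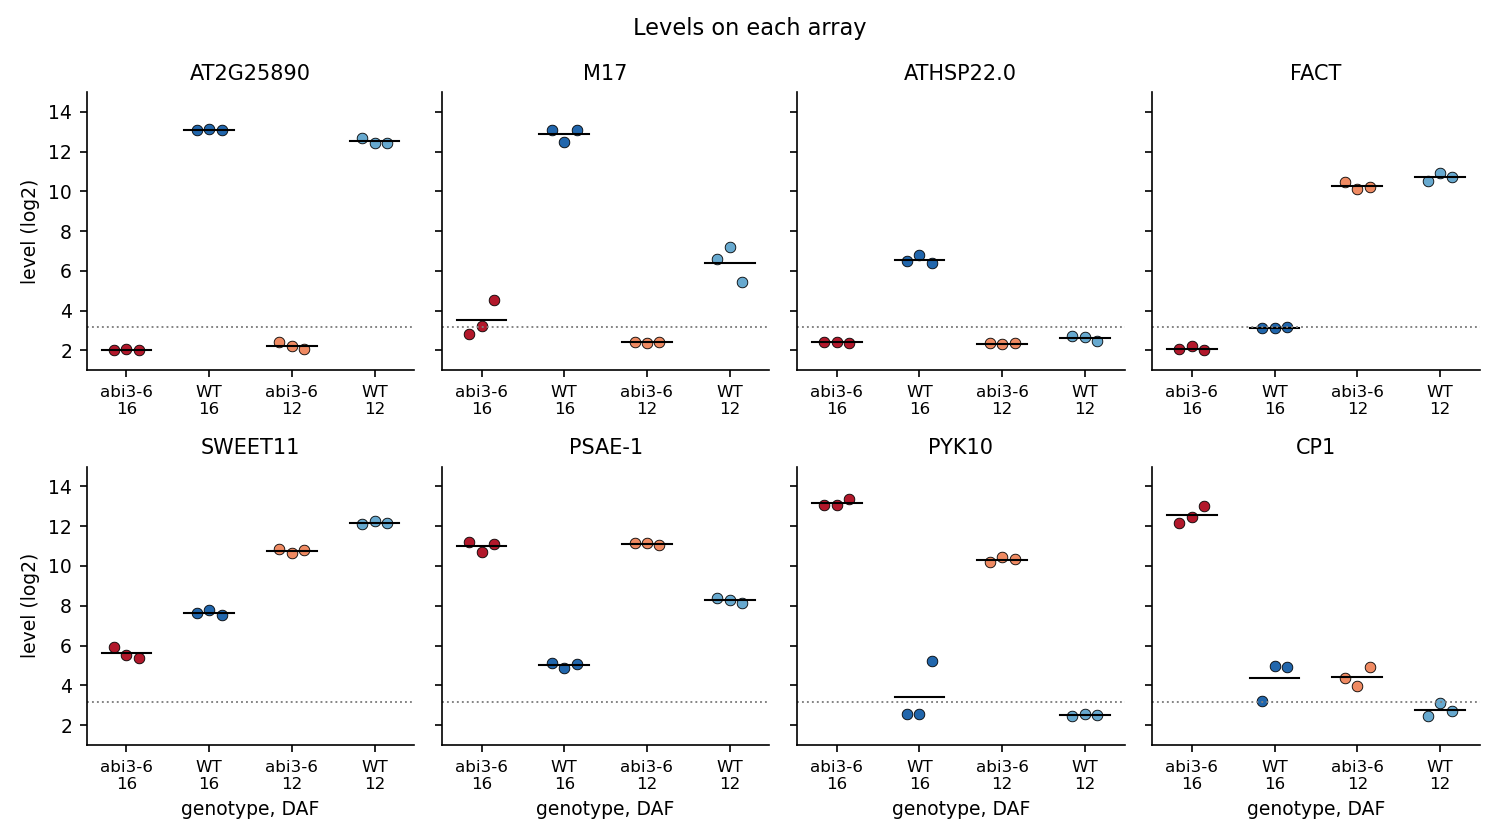
Levels (log2) of 8 genes on each array, in 16 DAF abi3-6 seeds, wild type at 16 DAF, abi3-6 at 12 DAF and wild type at 12 DAF (WT, n = 3 each, bars are means, dotted line the dim limit). AT2G25890 and M17 are low in both mutant groups, ATHSP22.0 is high in 16 DAF wild-type seeds, FACT and SWEET11 are low at 16 DAF in both genotypes, and PSAE-1, PYK10 and CP1 are highest in mutant groups.

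Photosynthesis genes were mostly higher in the mutant at both ages than in wild type at 12 DAF. Nuclear genes of the light reactions were mostly lower in wild type at 16 than at 12 DAF, with a wild-type median of -2.37. In abi3-6 at 16 DAF 8 of 10 were called higher than in 12 DAF wild-type seeds (35.9% of all probe sets were) and 0 lower, with a median of 1.90. The same number lay above every wild-type array (25% of all). The younger mutant stood farther from the same wild-type arrays, with a median of 2.77. PSAE-1, a photosystem I subunit, gave 11.21, 10.69 and 11.12 in 16 DAF abi3-6 seeds, 5.14, 4.89 and 5.05 in 16 DAF wild-type seeds, 11.16, 11.14 and 11.08 in 12 DAF abi3-6 seeds and 8.41, 8.27 and 8.16 in 12 DAF wild-type seeds (difference 2.73 ± 0.15, adjusted p = 1.84e-09). ATPC1, the gamma subunit of the chloroplast ATP synthase, averaged 10.27 ± 0.23 in 16 DAF abi3-6 seeds and 5.42 ± 0.12 in 12 DAF wild-type seeds, and was below the dim limit in 16 DAF wild-type seeds. The antenna gene LHCB4.1 averaged 10.69 ± 0.23 in 16 DAF abi3-6 seeds, 7.54 ± 0.07 in 16 DAF wild-type seeds, 11.26 ± 0.20 in 12 DAF abi3-6 seeds and 7.68 ± 0.27 in 12 DAF wild-type seeds. PSBW, a photosystem II subunit, differed by 2.77 ± 0.16 from wild type at 12 DAF.

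A few photosynthesis genes stood near the younger wild type instead. The antenna gene LHCB4.3 gave 8.93, 8.96 and 8.21 in 16 DAF abi3-6 seeds, 5.81, 5.93 and 5.29 in 16 DAF wild-type seeds, 10.64, 10.74 and 10.58 in 12 DAF abi3-6 seeds and 8.63, 8.84 and 8.85 in 12 DAF wild-type seeds, and was not called (95% interval of the difference -0.52 to 0.38). The mutant was higher at 12 than at 16 DAF. PRK, phosphoribulokinase of the Calvin cycle, averaged 8.11 ± 0.21 in 16 DAF abi3-6 seeds and 7.78 ± 0.22 in 12 DAF wild-type seeds, and was below the dim limit in 16 DAF wild-type seeds. PSBY, a photosystem II protein, differed by 0.55, a call lost without replicate 1 or 2 of the older mutant or replicate 1 or 3 of wild type at 12 DAF. After centring and after quantile normalization 7 members were called higher and 1 lower.

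Of the 4 Calvin cycle genes, 3 were called higher (35.9% of all probe sets were) and 0 lower, with a median of 0.85, against 1.88 for abi3-6 at 12 DAF over the same wild-type arrays. RCA, which activates Rubisco, averaged 9.03 ± 0.33 in 16 DAF abi3-6 seeds, 4.72 ± 0.15 in 16 DAF wild-type seeds and 5.99 ± 0.49 in 12 DAF wild-type seeds (difference 3.05 ± 0.24, adjusted p = 6.28e-08). The sedoheptulose-bisphosphatase gene SBPASE differed by 1.02, and the phosphoglycerate kinase gene AT1G56190 by 0.67. AT1G56190 was higher in the younger mutant, at 9.02, than in the older one, at 8.18.

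All 8 tested chlorophyll synthesis genes were called higher than in 12 DAF wild-type seeds (35.9% of all probe sets were). They lay above every wild-type array (25% of all probe sets did). Their median was 2.61 in the older mutant and 1.90 in the younger one, while their wild-type median between the ages was -0.01. PORB, a light-dependent protochlorophyllide oxidoreductase, gave 9.93, 10.08 and 10.46 in 16 DAF abi3-6 seeds, 2.64, 2.00 and 2.98 in 16 DAF wild-type seeds and 4.28, 3.28 and 3.76 in 12 DAF wild-type seeds, a difference of 6.38 ± 0.30 from the last (adjusted p = 3.36e-10). CHLI2, a magnesium chelatase subunit, was below the dim limit at both wild-type ages and at least 12.9-fold higher in the older mutant than in 12 DAF wild-type seeds. CHLM, the magnesium protoporphyrin methyltransferase, differed by 3.21 ± 0.21 and stood at 8.94 in the older and 9.14 in the younger mutant. The geranylgeranyl reductase gene AT1G74470 averaged 11.96 ± 0.05 in 16 DAF abi3-6 seeds, 3.64 ± 0.55 in 16 DAF wild-type seeds, 12.04 ± 0.11 in 12 DAF abi3-6 seeds and 8.85 ± 0.31 in 12 DAF wild-type seeds. Of 2 chlorophyll breakdown genes, AT1G44000 was called lower (-1.25 ± 0.32) and NOL, a chlorophyll b reductase, was not called (95% interval -0.61 to 0.24). In wild type both fell between the ages.

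**Figure D5:**
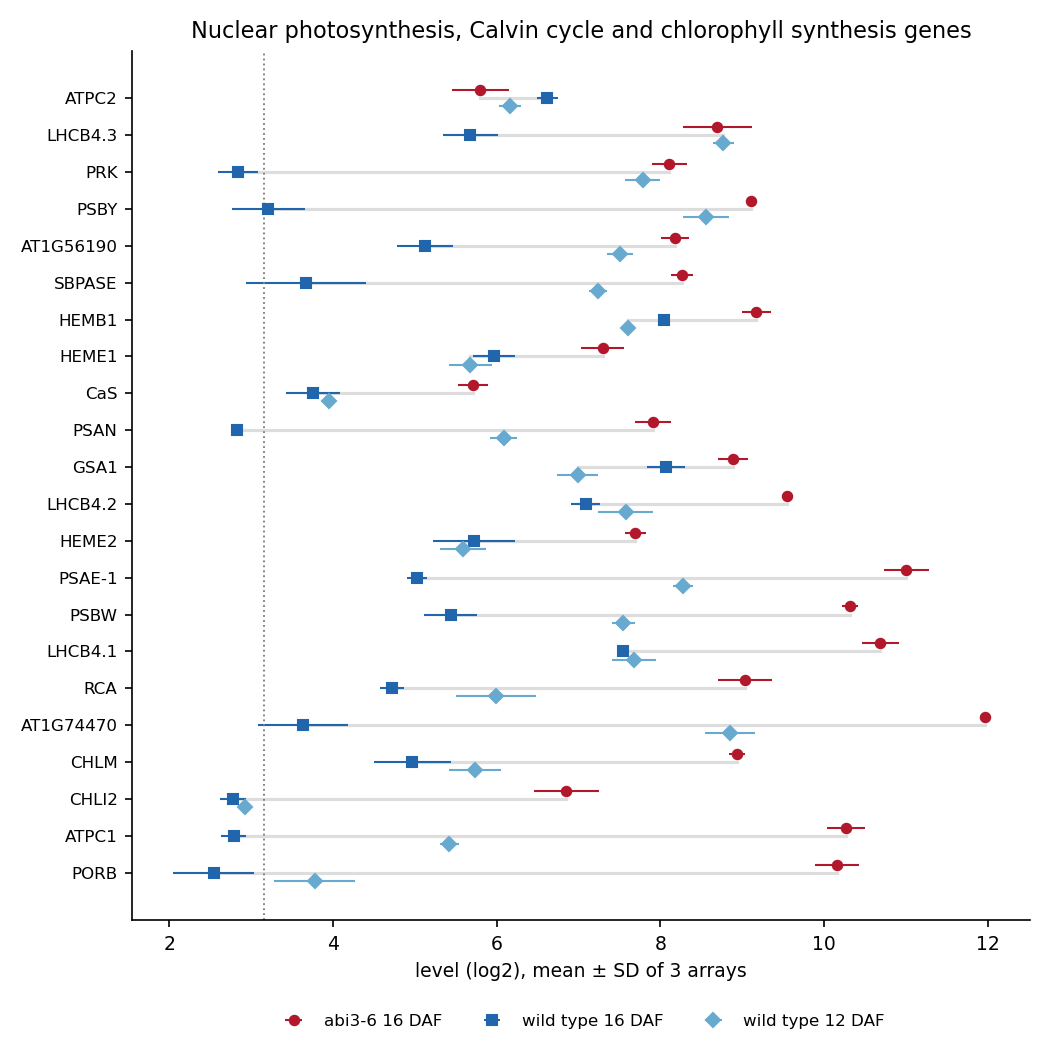
Levels (log2, mean ± SD of 3 arrays) of the 22 tested nuclear photosynthesis, Calvin cycle and chlorophyll synthesis genes in 16 DAF abi3-6 seeds, wild type at 16 DAF and wild type at 12 DAF, ordered by the difference of abi3-6 at 16 DAF minus wild type at 12 DAF. The dotted line is the dim limit. Most mutant points lie right of both wild-type ages, while ATPC2, LHCB4.3 and PRK at the top overlap a wild-type age or lie to its left.

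Genes of the plastid genome changed less. Of 69 tested, 30 were called higher (35.9% of all probe sets were), 6 lower (30.2%) and 33 were not called, with a median of 0.62. Those with the largest rise encode the plastid RNA polymerase and ribosome: rpoC1 differed by 3.01 ± 0.24, rps2 by 2.94 ± 0.25 and rpl16 by 2.44 ± 0.25. For rpoC1 the arrays read 9.35, 9.54 and 9.67 in 16 DAF abi3-6 seeds, 8.13, 7.58 and 8.01 in 16 DAF wild-type seeds and 5.97, 6.61 and 6.94 in 12 DAF wild-type seeds. The photosystem I gene psaJ was the most lowered, at 11.65 ± 0.20 in 16 DAF abi3-6 seeds against 13.01 ± 0.11 in 12 DAF wild-type seeds, with wild type at 16 DAF lower still at 10.62. With centred arrays 27 were called higher and 10 lower. Without 1 of the arrays compared, 30 to 39 were called in either direction. The calls of petD, rps14 and psbN, which were lower, each depended on single arrays. So did those of psaC, psbE and atpA, which were higher.

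Of the 5 largest rises 4 were in genes of the ER body and its lectins and the other in the protease CP1. The ER body is an endoplasmic reticulum compartment of seedlings and roots that stores beta-glucosidases for defence. Of 7 tested ER body and lectin genes, 6 were called higher (35.9% of all probe sets were) and 1 lower, with a median of 8.26 and a wild-type median of 0.25. PYK10, a beta-glucosidase that fills these bodies, gave 13.06, 13.05 and 13.38 in 16 DAF abi3-6 seeds, 2.55, 2.53 and 5.22 in 16 DAF wild-type seeds, 10.19, 10.43 and 10.34 in 12 DAF abi3-6 seeds and 2.45, 2.53 and 2.53 in 12 DAF wild-type seeds. It was below the dim limit on all wild-type arrays except replicate 3 at 16 DAF, and at least 1028-fold higher in the older mutant than in 12 DAF wild-type seeds (adjusted p = 3.55e-10). NAI2, a protein needed to form ER bodies, gave 12.47, 12.47 and 12.61 in 16 DAF abi3-6 seeds, against 2.52, 2.94 and 3.86 in 12 DAF wild-type seeds (difference 9.40 ± 0.25). NAI1, the bHLH factor that controls their formation, averaged 6.49 ± 0.19 in 16 DAF abi3-6 seeds, and all 3 wild-type 12 DAF arrays were below the dim limit.

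The jacalin-type lectin genes JAL33 and JAL34, whose proteins are found in PYK10 complexes, were at least 288-fold and 192-fold higher than in 12 DAF wild-type seeds. Both were below the dim limit on all 6 wild-type arrays, and in abi3-6 they stood at 5.99 and 7.49 at 12 DAF and at 11.33 and 10.74 at 16 DAF. The other beta-glucosidase of the list, BGLU19, was lower, with 3.58, 3.59 and 2.29 in 16 DAF abi3-6 seeds (2 of 3 arrays above the dim limit), 14.03, 14.08 and 14.06 in 16 DAF wild-type seeds and 13.27, 12.98 and 13.05 in 12 DAF wild-type seeds (difference -9.95 ± 0.28, adjusted p = 2.41e-12).

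Protease genes went both ways. Of 12 tested, 4 were called higher (35.9% of all probe sets were), 7 lower (30.2%) and 1 was not called, with a median of -1.59. The cysteine protease CP1 averaged 12.55 ± 0.42 in 16 DAF abi3-6 seeds, 4.36 ± 0.99 in 16 DAF wild-type seeds, 4.41 ± 0.47 in 12 DAF abi3-6 seeds and 2.76 ± 0.32 in 12 DAF wild-type seeds, at least 670.3-fold higher in the older mutant than in the younger wild type (adjusted p = 8.14e-11). The mutant at 12 DAF was close to wild type at 16 DAF, and far below the older mutant. AT1G29090, of the same protease family, was at least 58.1-fold higher, with 8.58, 8.34 and 10.14 on the arrays of the older mutant, and the aspartyl protease family gene AT1G66180 at least 49.3-fold higher.

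The vacuolar processing enzymes, which mature storage proteins in the vacuole, were lower. BETA-VPE, the seed form, averaged 11.02 ± 0.57 in 16 DAF abi3-6 seeds, 13.65 ± 0.18 in 16 DAF wild-type seeds and 13.60 ± 0.10 in 12 DAF wild-type seeds (difference -2.59 ± 0.22, adjusted p = 1.80e-07). DELTA-VPE, known from the inner seed coat, averaged 9.08 ± 0.14, 6.69 ± 0.20 and 10.19 ± 0.36 in those groups, and ALPHA-VPE and GAMMA-VPE differed from wild type at 12 DAF by -3.27 and -2.08. The papain-family gene AT3G54940 gave 7.84, 7.95 and 5.77 in 16 DAF abi3-6 seeds, against 13.31, 13.17 and 13.36 in 12 DAF wild-type seeds, with replicate 3 of the mutant again the lowest.

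Genes of oil breakdown, a seedling pathway, were raised in the older mutant and also in older wild type. All 3 tested were called higher (35.9% of all probe sets were), with a median of 1.03, and the wild-type median was 1.52. The glyoxylate cycle gene ICL gave 14.73, 14.95 and 14.79 in 16 DAF abi3-6 seeds, 13.74, 13.92 and 13.98 in 16 DAF wild-type seeds and 12.55, 12.67 and 12.84 in 12 DAF wild-type seeds (difference 2.14 ± 0.14, adjusted p = 7.81e-09). AIM1, a peroxisomal beta-oxidation enzyme, and SDP1, a triacylglycerol lipase, differed by 1.03 and 0.85, and their means lay between the wild-type ages. ICL alone of the 3 stood above every wild-type array.

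Cell wall loosening genes were split. Of 9 tested, 3 were called higher (35.9% of all probe sets were) and 4 lower (30.2%), near the shares over all, with a median of -0.54. XTH19, a xyloglucan endotransglucosylase, gave 8.97, 9.13 and 10.13 in 16 DAF abi3-6 seeds, 4.11, 4.06 and 4.17 in 16 DAF wild-type seeds, 4.75, 4.89 and 4.37 in 12 DAF abi3-6 seeds and 3.74, 4.27 and 3.69 in 12 DAF wild-type seeds (difference 5.51 ± 0.26, adjusted p = 3.64e-10). The expansin genes EXPA9 and EXPA20 were also above every wild-type array, with EXPA9 differing by 3.71 ± 0.20 from wild type at 12 DAF and EXPA20 at least 32-fold higher. XTH32 was low at 16 DAF in both genotypes, with 3.15 ± 0.15 in 16 DAF abi3-6 seeds (1 of 3 arrays above the dim limit), 2.78 ± 0.01 in 16 DAF wild-type seeds, 7.50 ± 0.13 in 12 DAF abi3-6 seeds and 7.72 ± 0.16 in 12 DAF wild-type seeds. EXPA4 was not called (difference -0.54 ± 0.25), while wild type at 16 DAF was below the dim limit.

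Of 6 cold and dehydration genes, 4 were called higher (35.9% of all probe sets were), 1 lower (30.2%) and 1 was not called, with a median of 0.89. This list shares members with the LEA list, LTI30 and COR47 among them, so its counts are not separate from the LEA counts. AT5G62350, of the invertase and pectin methylesterase inhibitor family, gave 11.63, 11.18 and 11.79 in 16 DAF abi3-6 seeds, against 6.54, 6.25 and 6.64 in 12 DAF wild-type seeds (difference 5.05 ± 0.20, adjusted p = 5.79e-11). The fall of COR27, a cold-regulated gene, was -1.24 with replicate 1 of the older mutant and -0.61 without it (limma adjusted p = 0.149). That call was also lost without any 1 of the wild-type 12 DAF arrays. In the flavonoid pathway 1 of 3 was called higher (35.9% of all) and 2 lower (30.2%). DFR, dihydroflavonol reductase, differed by 1.33 ± 0.25, while CHIL and BAN were below the dim limit on all arrays of the older mutant. In 12 DAF wild-type seeds CHIL reached the limit on 1 of 3 arrays and BAN on 2 of 3, so no fold is given. Both calls were lost without replicate 1 of the older mutant, and that of CHIL also without replicate 1 or 3 of wild type at 12 DAF. Only 2 of 37 cell division loci were tested, with 1 called higher (35.9% of all) and 1 lower (30.2%). PRL, a DNA replication licensing factor, was at least 4.2-fold higher than in 12 DAF wild-type seeds. It gave 4.93, 4.93 and 5.83 in 16 DAF abi3-6 seeds, with no wild-type array above the limit. The kinase gene AUR2 differed by -0.39, a call lost without any of 4 single arrays.

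Outside the lists, the largest falls included AT5G45690, which gave 2.44, 2.27 and 2.27 in 16 DAF abi3-6 seeds, 13.61, 13.71 and 13.83 in 16 DAF wild-type seeds and 13.52, 13.65 and 13.60 in 12 DAF wild-type seeds. It was at least 1377-fold lower than in 12 DAF wild-type seeds and differed most of all single-gene probe sets (adjusted p = 1.80e-15). The pectin methylesterase family gene AT3G60730 was at least 619-fold lower, with wild type at 16 DAF between them at 9.79. AT5G55620, AT2G38900 and AT2G19320 differed by -9.23, -8.98 and -8.96, with 3, 2 and 1 of 3 arrays of the older mutant above the limit. The superoxide dismutase family gene AT3G56350 averaged 5.61 ± 0.82 in 16 DAF abi3-6 seeds, 13.90 ± 0.08 in 16 DAF wild-type seeds and 13.80 ± 0.03 in 12 DAF wild-type seeds. The 10 genes with the largest fall were chosen among those whose arrays do not overlap those of wild type at 12 DAF. They also lay below every array of wild type at 16 DAF.

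The largest rises outside the lists were of genes that differed little between the wild-type ages. ZW9, of the TRAF-like family, gave 11.12, 11.04 and 11.34 in 16 DAF abi3-6 seeds, against 2.72, 3.30 and 3.81 in 12 DAF wild-type seeds (difference 7.89 ± 0.24). CCL averaged 12.39 ± 0.09 in 16 DAF abi3-6 seeds, 5.21 ± 0.57 in 16 DAF wild-type seeds, 10.04 ± 0.22 in 12 DAF abi3-6 seeds and 5.39 ± 0.15 in 12 DAF wild-type seeds. AT1G47400, an iron deficiency peptide gene, averaged 10.23 ± 0.20 in 16 DAF abi3-6 seeds and 12.01 ± 0.38 in 12 DAF abi3-6 seeds, against 3.38 ± 0.29 in 12 DAF wild-type seeds. The TRAF-like gene AT5G26260 and the pectate lyase gene AT1G67750 were at least 95.6-fold and 51.1-fold higher. AT5G26260 was below the limit in 12 DAF abi3-6 seeds too, so that in these data it was seen in the older mutant alone among the 4 groups. The 10 genes with the largest rise were likewise chosen for no overlap with wild type at 12 DAF. They also lay above every array of wild type at 16 DAF.

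Beyond M17 and AT3G22490, the 6 genes with the largest wild-type rise included AT2G34740, of the protein phosphatase 2C family, with 2.23, 2.23 and 2.22 in 16 DAF abi3-6 seeds, 10.47, 10.87 and 10.83 in 16 DAF wild-type seeds and 4.18, 3.32 and 2.69 in 12 DAF wild-type seeds. The chitinase family gene AT2G43580 was below the limit in the older mutant and averaged 9.34 ± 0.09 in 16 DAF wild-type seeds, and its difference from wild type at 12 DAF was not called, with 1 of 3 arrays above the limit there. AT2G43590, of the same family, averaged 6.07 ± 0.18 in 16 DAF abi3-6 seeds, 10.09 ± 0.31 in 16 DAF wild-type seeds and 3.84 ± 0.59 in 12 DAF wild-type seeds. AT3G16120 gave 6.59, 6.60 and 6.58 in 16 DAF abi3-6 seeds, 9.99, 9.95 and 10.21 in 16 DAF wild-type seeds and 3.75, 3.15 and 3.01 in 12 DAF wild-type seeds. The last 2 genes rose to a level between the wild-type ages, M17, AT3G22490 and AT2G34740 fell below the younger wild type, and AT2G43580 was not called.

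Markers of the seed's tissues were few in the table. None of 6 embryo markers and 1 of 7 endosperm markers (AGL62, dim on these arrays) had a probe set of its own, so the share of embryo and endosperm was not checked. Of 3 seed coat markers, ARA12, a subtilase of the mucilage-secreting coat, averaged 11.28 ± 0.15 in 16 DAF abi3-6 seeds, 9.82 ± 0.18 in 16 DAF wild-type seeds and 9.93 ± 0.12 in 12 DAF wild-type seeds (adjusted p = 3.09e-06). AT3G48460 gave 3.44, 3.27 and 5.19 in 16 DAF abi3-6 seeds, at least 1.75-fold above the limit that no wild-type 12 DAF array reached, with replicate 3 the highest. Its fitted difference, which is no bound, was 1.35 with that array and 0.74 without it. BAN was near or below the limit in all groups. ALC, a marker of the silique wall, gave 4.37, 3.62 and 4.75 in 16 DAF abi3-6 seeds, against 4.63, 3.60 and 4.27 in 12 DAF wild-type seeds, and was not called (95% interval -0.55 to 0.71). The part of tissue proportions in the differences was not tested.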

How the data were processed

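The deposited table held 22810 probe sets (64 controls) for 12 arrays in 4 groups of 3, grouped by genotype and age labels. The deposited values were read as log2; no label states the scale, which was inferred from values between 1.49 and 15.9. GCOS 1.3 and GCRMA 2.0.0 are named in the submitters' processing notes without a role. GCRMA corrects background by probe sequence, which makes differences of dim probe sets uncertain. Labels call samples biological replicates from separate plant batches. Precision is limited by 3 arrays a group.

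Of 22746 non-control probe sets, 13513 had 1 gene in the platform annotation, 503 several and 8730 none; 13436 matched TAIR10.1, used for names only. They covered 13286 loci; the 144 with several probe sets took the brightest. Probe sets with 3 of 12 arrays at or above 3.16 (40th percentile of the whole table) were tested, 14873 in all. The 4 group means were estimated jointly over the 12 arrays by limma 3.58.1 under R 4.3.3 (lmFit, eBayes, 8 residual and 5.41 prior degrees of freedom), two-sided, with Benjamini-Hochberg adjustment over 14873 probe sets. Errors are SD over arrays or the SE and 95% interval of the fit. Tables came from pandas 2.3.3 and numpy 2.4.6 under Python 3.11.15, figures from matplotlib 3.10.9. The fit was tested on simulated data.

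Named genes were the 10 largest rises and falls with non-overlapping arrays, up to 4 per list (lists with 8 measured members or fewer could be named whole), the 6 largest wild-type rises and declines, the 6 farthest above and below both wild-type ages, and the 6 nearest to wild type at 12 DAF; some other members named for contrast were chosen after their values were seen. The members and lists were chosen with earlier results of these data known. Alternatives were centring, quantile normalization, other dim filters, the 6 arrays alone, array weights, the replicate number as a block and leaving out each array.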

Additional observations from a re-analysis of the deposited data

How the results depend on the processing

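The call count of 9831 lay between 7901 (stricter dim filter, 10834 probe sets tested) and 10035 (centred arrays) over all alternatives, and the count at 2-fold or more, 5644, between 4569 and 5745. Leaving out 1 of the 6 arrays compared at a time gave 9320 to 9531 calls and 5500 to 5745 at 2-fold or more. Outside the wild-type range lay 7177 to 7606 probe sets without 1 of these or of the wild-type 16 DAF arrays, against 7008 with all. Removing an array can only keep or raise the last of these counts, so its rise is no measure of stability. That last count was 12296 with no dim filter, since dim probe sets were added. Whether the replicate numbers pair the samples was not settled. Same-numbered arrays of abi3-6 at 16 DAF and wild type at 12 DAF had deviations correlated at -0.0037 to 0.14 over 3 pairs. Over all pairs of groups, same-numbered arrays gave -0.021 to 0.16 and other-numbered arrays -0.13 to 0.080, so a weak pairing is not excluded. The replicate block gave 9870 calls. Of 259 list counts under alternatives, 246 were within 1.5 times the main count. The others were in 4 small lists: flavonoid pathway (3 called, 1 under the stricter filter, 1 to 3 without 1 array), cell division (2 called, 1 under the stricter filter, with the 6 arrays alone or with array weights, 1 to 2 without 1 array), cold and dehydration (5 called, 3 with no filter, 3 to 5 without 1 array) and seed coat markers (3 called, 1 under the stricter filter). The cause was not tested except where a filter removed members. Of 168 called genes named or listed, 153 kept the call under every alternative run. In the course of the genotypes, 2 alternatives chosen after seeing the data gave 809 of 956 shared declines and 505 of 785 shared rises with centred arrays, and 962 of 1178 and 386 of 593 without replicate 3 of abi3-6 at 16 DAF. Levels below the dim limit of 3.16 could not be ordered.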

Other observations

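Gene families that had no list of their own were grouped by symbol, a grouping chosen after the values were seen. Serine carboxypeptidase-like genes were mostly higher in the older mutant than in 12 DAF wild-type seeds: of 11 tested, 8 were called higher (35.9% of all probe sets were) and 1 lower, with a median of 2.68, while their wild-type median between the ages was -0.95. The gene scpl35 gave 11.69, 11.53 and 11.72 in 16 DAF abi3-6 seeds, 6.39, 6.72 and 6.92 in 16 DAF wild-type seeds and 6.57, 6.30 and 6.74 in 12 DAF wild-type seeds. The gene scpl20 averaged 8.28 ± 0.46, 2.19 ± 0.51 and 4.73 ± 0.53 in those groups. Its mean was below the dim limit in older wild type. The gene scpl31 was the one called lower, by a difference of -2.11. UDP-glycosyltransferase genes, which attach sugars to hormones and secondary metabolites, had 19 of 32 called higher (35.9% of all probe sets were) and 5 lower (30.2%), with a median of 1.22 and a wild-type median of 0.84. UGT88A1 averaged 9.45 ± 0.09 in 16 DAF abi3-6 seeds, 5.84 ± 0.54 in 16 DAF wild-type seeds and 4.24 ± 0.52 in 12 DAF wild-type seeds. UGT72E1 stood at 3.75 ± 0.23, 9.55 ± 0.15 and 6.14 ± 0.47 in those groups.

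Beta-glucosidase genes other than PYK10 went mostly the other way, with 9 of 12 called lower (30.2% of all probe sets were) and 3 higher, a median of -2.22 and a wild-type median of -0.68. BGLU19 of the ER body and lectin list bears the same symbol, so these counts may not be separate from those of that list. BGLU29 was at least 70.3-fold lower in the older mutant than in 12 DAF wild-type seeds, with 6.31, 5.82 and 5.89 in 12 DAF abi3-6 seeds. BGLU44 was higher, at 11.88 ± 0.22 in 16 DAF abi3-6 seeds, 7.34 ± 0.32 in 16 DAF wild-type seeds and 7.76 ± 0.09 in 12 DAF wild-type seeds. Of 9 genes of the IQD family of calmodulin-binding proteins 7 were called lower (30.2% of all probe sets were) and 1 higher, with a median of -1.55 and a wild-type median of -1.24. IQD26 was lowest against wild type at 12 DAF, with a difference of -2.84 ± 0.20.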
